A study of Mus musculus with 6 samples.

Results

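Tetraspanins are small proteins that cross the cell membrane several times and gather other membrane proteins into clusters. The 9 genes described are Cd81, Cd9, Cd37, Cd53, Cd63, Cd82, Cd151, Tspan31 and Tspan32, found by symbol among the 55487 genes listed in each library. They are 9 of 31 mouse tetraspanin genes that were looked up. Cd81 was selected on its measured expression in this same comparison. Its fold change ranked 9 among the decreases of called genes averaging at least 10 CPM (counts scaled to a common library size) over all libraries. Cd81 met this limit through its control mean of 14.1 CPM, as its itaconate mean was 7.31 CPM. Its relatives were added by family. The values of the 9 genes in this comparison are therefore a description, printed without p-values. Whether a gene passed the test over all genes is stated only to place it. Transcript length, which did not enter the choice, was tested separately. RNA came from cytotoxic (CD8+) T cells of C57BL/6 mice. In 3 libraries these cells had spent 48 h in 5 mM itaconate, a metabolite of the tricarboxylic acid cycle intermediate aconitate. In the other 3 libraries they had spent 48 h with NaCl as the control, whose concentration, like the way the cells were isolated and activated, is not stated in the labels. The labels do not tie replicates to separate mice or cultures, so tests measure the spread between libraries only, which may be technical.

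In T cells, tetraspanins sit beside integrins, coreceptors and signalling receptors and shape the contact zone with a target or antigen-presenting cell. CD81 acts as a costimulatory molecule on T cells. CD37, CD53 and TSPAN32 are largely restricted to blood cells, CD63 resides mainly in late endosomes, lysosomes and secretory granules, and CD9, CD63 and CD81 are widely used as markers of exosomes.

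Expected counts summed to between 18280217 and 23609543 in itaconate libraries and between 20469874 and 31643408 in control libraries. The CD8 T cell markers were abundant, with 8 of 8 detected and a summed level of 2159 to 2193 CPM in itaconate libraries and 1940 to 2045 CPM in control libraries. The 6 B cell markers summed to 9.4 to 20.4 CPM in itaconate libraries and 10.6 to 16.7 CPM in control libraries, and the 8 macrophage markers to 4.88 to 12 CPM with itaconate and 7.72 to 8.25 CPM in control. The CD4 T cell markers Cd4 and Zbtb7b summed to 7.44 to 10.8 CPM with itaconate and 5.64 to 9.49 CPM in control. The 6 dendritic cell markers summed to at most 3.6 CPM, the 5 platelet markers to at most 1.22 CPM and the 3 NK cell markers to at most 1.16 CPM in any library. The stromal list summed to 20.8 to 22.5 CPM in itaconate libraries and 23.4 to 27.5 CPM in control libraries, nearly all of it Pecam1, which T cells can express too (21.2 ± 0.849 CPM with itaconate and 25.1 ± 1.75 CPM in control, edgeR adjusted p 0.0657). The part of other cells in the values below was not tested. Siglech, Pf4, Ppbp and Gp1bb had no count in any library. Many of these other-cell markers were too low for the gene test. It covered 4 of 6 B cell, 3 of 8 macrophage, 1 of 6 dendritic cell and 1 of 5 platelet markers. It also covered 2 of 2 CD4, 1 of 4 stromal and 0 of 3 NK cell markers. None of those tested passed.

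Itaconate-treated cells had 0.521 times the Cd81 mRNA of control cells, and somewhat more Cd37 mRNA. Most of the other 7 listed genes lay close to their control level. The exceptions were Cd63 and Cd151, with log2 fold changes of 1.18 and 0.31 that did not pass the test. Of the 9 genes, all of which could be tested, 1 was called lower (Cd81), 1 was called higher (Cd37) and 7 did not pass. A call means a Benjamini-Hochberg adjusted p under 0.05 in edgeR's quasi-likelihood test over 12350 genes, and 12.0% of all tested genes were called, 6.68% higher and 5.36% lower. The median log2 fold change of the 9 genes was -0.03, against 0.01 for all tested genes. Cd81, Cd37, Cd151 and Cd63, 4 of the 9 genes, had CPM values that were separate between the groups, as had 31.2% of the genes tested. Because the group was chosen with this comparison in view, nothing is read from these counts.

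**Figure D1:**
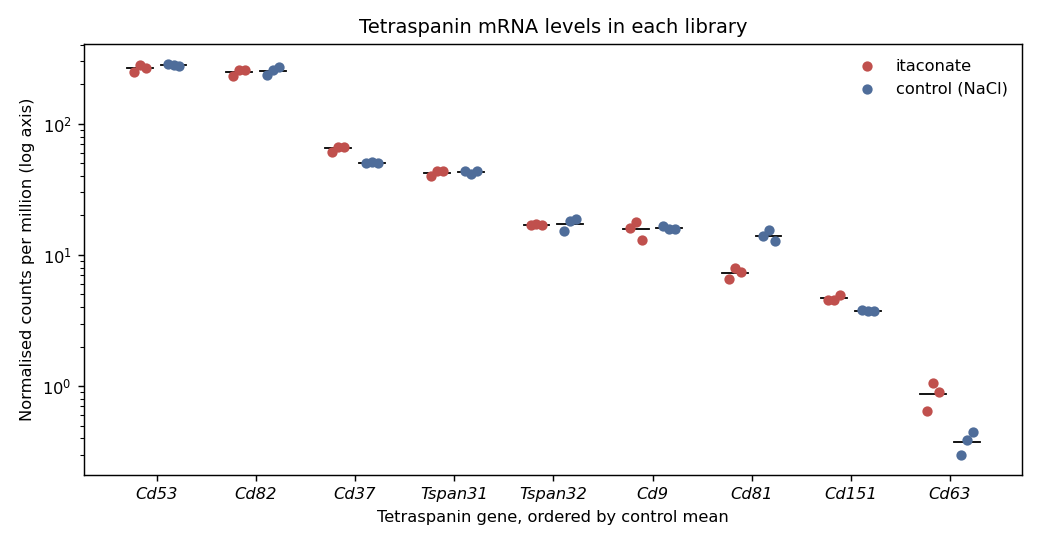
CPM (normalised counts) of the 9 tetraspanin genes on a log axis, with 1 point per library (itaconate left, control right of each pair) and a line at the mean of 3 libraries. Cd81 lies at 6.58 to 7.93 CPM with itaconate and 12.8 to 15.5 CPM in control, Cd37 lies higher with itaconate, and most other genes lie level.

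Cd81 (ENSMUSG00000037706) is a protein-coding gene on the plus strand of chromosome 7, at 143052739 to 143067934 in the GRCm38 mouse genome (GENCODE M21). It had 6.58, 7.93 and 7.42 CPM in itaconate replicates 1, 2 and 3, against 13.9, 15.5 and 12.8 CPM in control replicates 1, 2 and 3. The highest itaconate library lay well below the lowest control library. The means were 7.31 ± 0.683 CPM with itaconate and 14.1 ± 1.37 CPM in control (SD, n = 3 each), from 133 to 173 reads and 321 to 403 reads per library, in the same order. The fitted log2 fold change was -0.94 ± 0.12 (SE), which is 0.521 times the control level. Per transcript length the picture was similar, with 8.29, 7.81 and 6.81 TPM (transcripts scaled by length and to a common total) in itaconate libraries and 16.2, 15.2 and 13.4 TPM in control libraries. In RNA from a whole culture, fewer cells that express a gene and less RNA per cell cannot be told apart. The gene R74862 on the minus strand overlaps the start of Cd81 over 948 bases and was at 3 to 5 reads in itaconate libraries and 7 to 14 reads in control libraries, and the strand setting of the counting is not given in the sources used here.

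The stretch of genome just before Cd81 is shown beside those before Tspan32, its neighbour on chromosome 7 whose mRNA stayed level, and before Cd9, a close relative of Cd81 that also stayed level. The sequences come from RefSeq (GRCm38.p6). They run 5′ to 3′ on the gene's own strand and end before the first base that GENCODE or RefSeq counts as transcribed. Capitals mark the letters GGGCGG on either strand, the core that SP and KLF factors bind. The window of Cd81 is chr7:143052500-143052738 (plus strand), that of Tspan32 is chr7:143004796-143005045 (plus strand) and that of Cd9 is chr6:125494792-125495010 (minus strand).
Cd81: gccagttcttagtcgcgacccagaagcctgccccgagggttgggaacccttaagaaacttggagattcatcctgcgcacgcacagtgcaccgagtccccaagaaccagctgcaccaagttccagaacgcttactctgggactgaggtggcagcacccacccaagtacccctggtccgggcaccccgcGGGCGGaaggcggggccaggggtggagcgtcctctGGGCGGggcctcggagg
Tspan32: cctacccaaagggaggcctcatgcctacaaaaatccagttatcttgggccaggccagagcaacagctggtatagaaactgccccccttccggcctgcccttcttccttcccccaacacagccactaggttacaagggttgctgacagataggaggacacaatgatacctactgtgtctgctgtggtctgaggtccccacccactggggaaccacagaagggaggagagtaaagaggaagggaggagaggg
Cd9: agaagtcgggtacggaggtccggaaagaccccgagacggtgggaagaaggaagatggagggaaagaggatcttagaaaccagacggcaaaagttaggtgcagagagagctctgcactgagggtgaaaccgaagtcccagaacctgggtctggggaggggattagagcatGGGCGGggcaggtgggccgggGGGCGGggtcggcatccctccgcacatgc
The 239 bases before Cd81 hold 2 matches to GGGCGG and 15 CpG pairs, with G or C at 65.3% of positions. The 219 bases before Cd9 also hold 2 matches, with 12 CpG pairs and G or C at 61.2%. The 250 bases before Tspan32 hold no match and 1 CpG pair, with G or C at 55.6%. A match to GGGCGG on either strand was present in 35.7% of 32851 RefSeq promoter windows, each 300 bases long. All 9 genes had a promoter window in RefSeq, 13 windows in all. The full window of Cd9 held 18 CpG pairs, and 1 window of Cd151 held 20. The full 300-base window of Cd81 held 23 CpG pairs (percentile 78.5), against a median of 7. That window held 3 matches to GGGCGG, 1 to the TATA box letters TATAAA (found in 13.6% of all windows), and no match to the hypoxia-inducible factor core ACGTG (19.6%) or the ETS core GGAAGT (23.8%), all searched on both strands. The 300-base window runs past the first transcribed base. Its TATAAA match and 1 of its 3 GGGCGG matches do not lie within the 239 bases shown before Cd81. None of these motifs contains another. A match is a description of the letters and not a measured binding site.

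Per transcript length, in TPM, Cd37, Cd53 and Cd82 were the tetraspanins that these cells made most of. In mean CPM Tspan13, described below, lay above Cd37 in both groups. CD37 restrains T cell proliferation in mice. Cd37 had 61.2, 66.5 and 66.9 CPM in itaconate replicates 1, 2 and 3, against 50.2, 50.9 and 50.5 CPM in control replicates 1, 2 and 3. All 3 itaconate libraries lay above all 3 control libraries, and the fitted log2 fold change was 0.36 ± 0.059 (SE), or 1.28 times the control level. The call of Cd37 was lost when effective transcript length was modelled (log2 fold change 0.31) and on TPM values (0.24 in each of 3 settings), where it had 67, 76 and 79.2 TPM with itaconate and 58.8, 65.7 and 63.5 TPM in control, still without overlap. Cd53, a leukocyte tetraspanin that takes part in lymphocyte adhesion and recirculation, had 248, 283 and 266 CPM in itaconate libraries and 288, 281 and 274 CPM in control libraries. The groups overlapped, and the log2 fold change was -0.08 ± 0.052. On the TPM scale Cd53 was at 204, 219 and 210 with itaconate and 246, 236 and 220 in control, which did not overlap but did not pass limma's test either. Cd82, also called KAI1 and known as a suppressor of metastasis and a partner of integrins, had 230, 255 and 257 CPM in itaconate libraries and 235, 255 and 271 CPM in control libraries, with a log2 fold change of -0.03 ± 0.059.

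Cd9, Cd151 and Cd63 were present at lower levels. Cd9, which binds integrins and the EWI proteins as CD81 does, had 16.0, 17.8 and 13.1 CPM in itaconate libraries and 16.6, 15.9 and 15.8 CPM in control libraries. These overlapped, with a log2 fold change of -0.05 ± 0.11, and the lowest of the 6 values was that of itaconate replicate 3. Cd151, known for holding laminin-binding integrins, had 4.50, 4.55 and 4.98 CPM in itaconate libraries and 3.82, 3.72 and 3.75 CPM in control libraries. The groups did not overlap, but the log2 fold change of 0.31 ± 0.16 did not pass. On the TPM scale Cd151 overlapped between the groups, at 3.76 to 4.69 with itaconate and 3.16 to 4.51 in control.

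Cd63, the tetraspanin of lysosomes and secretory granules, was the scarcest of the 9 genes. It had 13, 19 and 21 reads in itaconate replicates 1, 2 and 3, against 8, 8 and 14 reads in control replicates 1, 2 and 3, or 0.866 ± 0.208 CPM with itaconate and 0.376 ± 0.0743 CPM in control (SD, n = 3 each). Scaled to depth, the groups did not overlap, at 0.643 to 1.05 CPM with itaconate and 0.297 to 0.444 CPM in control. The log2 fold change of 1.18 had the widest error of the group (SE 0.42) and did not pass the test. These values rest on few reads.

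Tspan31 and Tspan32 stayed level on the count scale. Tspan31, first found as a gene amplified in sarcomas, had 40.0, 43.5 and 43.7 CPM in itaconate libraries and 43.7, 41.4 and 43.6 CPM in control libraries (log2 fold change -0.02 ± 0.064). Its 3' end overlaps that of Cdk4 on the opposite strand over 641 bases, and Cdk4, a cell cycle kinase, was at 393 ± 4.23 CPM with itaconate and 389 ± 16.9 CPM in control, so reads in the overlap may have been assigned to either gene. On the TPM scale Tspan31 did not overlap between the groups, at 39.3 to 40.9 with itaconate and 43.4 to 44.5 in control, without passing limma's test. Tspan32, which restrains T cell proliferation in mice and couples to integrin signalling in platelets, had 17.0, 17.1 and 16.8 CPM in itaconate libraries and 15.2, 18.1 and 18.7 CPM in control libraries, with overlap and a log2 fold change of -0.03 ± 0.098.

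Levels between genes were compared per length, in TPM. Cd53 (211 ± 7.81 TPM with itaconate and 234 ± 12.8 TPM in control; SD, n = 3 each) and Cd82 (190 ± 6.72 and 205 ± 8.12 TPM, in the same order) were the most abundant of the 9 genes, followed by Cd37, Tspan31 and Cd9. In each group every gene's 3 TPM values lay apart from those of the next gene in this order, except for Tspan32 and Cd81 in control libraries, which overlapped at 13.7 to 16 TPM and 13.4 to 16.2 TPM. In all 3 itaconate libraries Cd81 stood below Tspan32, which lay at 13.9 to 14.6 TPM, and above Cd151. Together Cd53 and Cd82 made up 55.2% to 56% of the TPM of all 31 tetraspanins in itaconate libraries and 57.5% to 57.8% in control libraries. Cd81 made up 0.923% to 1.19% with itaconate and 1.79% to 2.1% in control, and Cd37 9.6% to 10.7% with itaconate and 7.66% to 8.57% in control. The summed TPM of the family was 698 to 738 with itaconate and 749 to 768 in control. In CPM the family sums overlapped, at 839 to 926 with itaconate and 879 to 903 in control. Fold changes ran lower on TPM values over the tested genes in general. Their median log2 fold change was -0.05 on log2(TPM + 1) values, against 0.01 on counts. The part of this shift in the TPM values of Cd53 and Tspan31 above was not tested. The ratio of Cd81 to Cd9 TPM was 0.415, 0.374 and 0.432 in itaconate replicates 1, 2 and 3, against 0.742, 0.752 and 0.695 in control replicates 1, 2 and 3.

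The other 22 tetraspanins on the family list held 10 that could be tested, of which 3 rose, 1 fell and 6 did not pass, with a median log2 fold change of 0.18. Over all tested genes 12.0% were called. This list was also drawn up with earlier results of these data known, so nothing is read from the count. Tspan13 rose to 70.4 ± 4.10 CPM with itaconate, against 55.5 ± 0.635 CPM in control (log2 fold change 0.34 ± 0.059, edgeR adjusted p 0.00207), and lay between 66 and 74 CPM with itaconate and between 55 and 56.2 CPM in control. Its call was lost on TPM values (limma adjusted p 0.0708 to 0.158), where the log2 fold change was at least 0.26. Tspan9 was called higher, at 6.78, 8.16 and 8.84 CPM with itaconate and 5.35, 5.46 and 5.97 CPM in control (0.50 ± 0.14, edgeR adjusted p 0.0346). Tspan14, one of the TspanC8 group that escorts the protease ADAM10 to the cell surface, was called higher at 41.4, 36.9 and 36.3 CPM with itaconate and 33, 31.1 and 32.4 CPM in control (0.25 ± 0.072, edgeR adjusted p 0.0384). Tspan3 was called lower, at 29.7, 35.7 and 39.7 CPM with itaconate and 46.1, 44.9 and 41.9 CPM in control (-0.34 ± 0.092, edgeR adjusted p 0.0325).

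These 3 calls were fragile although the groups did not overlap in CPM for any of these genes, as was so for 31.2% of all genes tested. The Tspan14 call was lost without any 1 of the 6 libraries (edgeR adjusted p 0.0551 to 0.168). Tspan9 lost its call without control replicate 1 or 2 or itaconate replicate 2 or 3 (edgeR adjusted p 0.0901 to 0.151), and Tspan3 without control replicate 1 or 2 or itaconate replicate 1 or 2 (0.0785 to 0.107). With effective length as an offset Tspan14, Tspan9 and Tspan3 lost their calls too (edgeR adjusted p 0.164, 0.207 and 0.105), as they did on TPM values (limma adjusted p 0.0823 to 0.597), and with DESeq2 Tspan14 and Tspan9 did (adjusted p 0.0854 and 0.0799). Tspan13 kept its call without each library in turn (edgeR adjusted p 0.00187 to 0.0222). Tspan5, another TspanC8 member, was level at 26.8 ± 0.845 CPM with itaconate and 27.6 ± 1.95 CPM in control. Tspan4, which is abundant in migrasomes, vesicles left behind by migrating cells, was at 29.5 ± 1.62 CPM with itaconate and 28.4 ± 0.846 CPM in control. Tspan2 (6.87 ± 0.67 CPM with itaconate and 6.28 ± 0.886 CPM in control), Rom1 (7.56 ± 2.07 and 5.90 ± 1.35 CPM), Tspan6 (2.47 ± 0.535 and 3.05 ± 0.832 CPM) and Upk1a (0.791 ± 0.337 and 0.648 ± 0.156 CPM) did not pass, with adjusted p-values in edgeR from 0.33 to 0.687. The remaining 12, among them the TspanC8 genes Tspan10, Tspan15, Tspan17 and Tspan33, were under 1 CPM in every library. Tspan1, Tspan8, Tspan11, Tspan12, Upk1b and Prph2 had no count at all, which allows levels of up to 0.0948 to 0.164 CPM, the value of 3 counts in the deepest and the shallowest library, for counting error only.

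**Figure D2:**
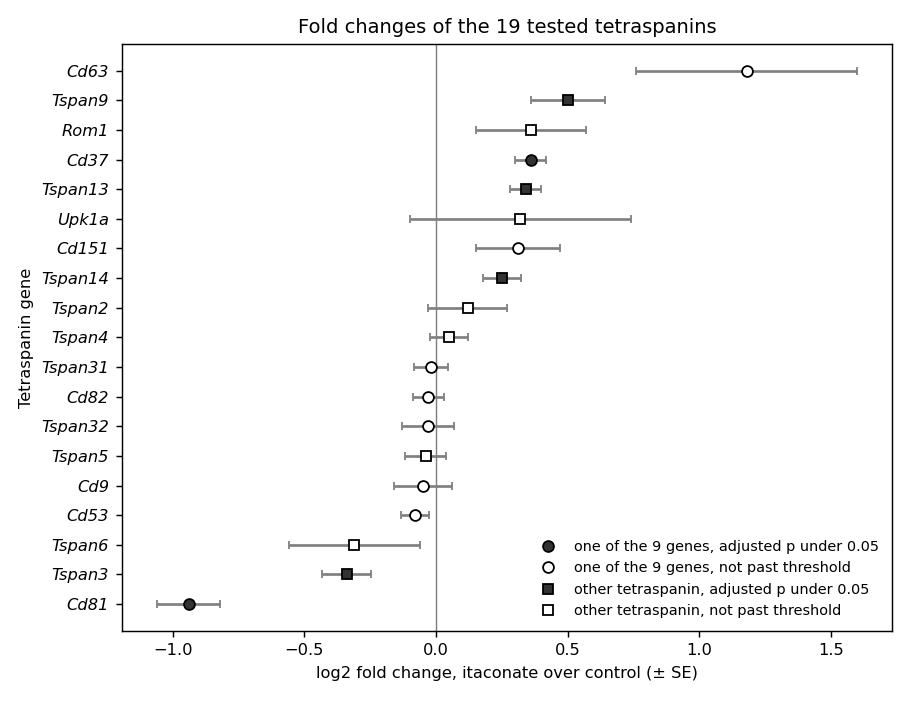
Log2 fold change of itaconate over control with its standard error for the 19 tetraspanins that could be tested, from edgeR's fit over all genes, with filled symbols for adjusted p under 0.05. Cd81 lies lowest at -0.94, and Cd63 lies highest at 1.18 with an SE of 0.42 and an open symbol.

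Proteins that tetraspanins bind or depend on were looked up as gene lists. Of 63 tested partner and neighbour genes outside the 9, 9 rose, 8 fell and 46 did not pass, with a median log2 fold change within 0.01 of 0. Over all tested genes 12.0% were called. The lists were drawn up with earlier results of these data known. Nothing is therefore read from this count or those of the single lists, and the adjusted p-values below only describe each gene. The first list holds the EWI proteins, immunoglobulin-family partners of CD81 and CD9, with the ERM linkers to actin and the adhesion receptor Adgrg1 (GPR56), which binds CD81. Of its 8 members 1 rose and 7 did not pass (median 0.02). Adgrg1 rose to 4.75, 5.99 and 4.89 CPM with itaconate, against 1.60, 1.06 and 1.43 CPM in control (log2 fold change 1.91 ± 0.22, edgeR adjusted p 0.000114). The groups lay far apart, although the call was lost on log2(TPM + 1) values (limma adjusted p 0.0518 with the filter and 0.141 without). Igsf8, the main EWI partner, was level at 47.0, 52.0 and 45.1 CPM with itaconate and 47.3, 46.8 and 50 CPM in control. Ptgfrn, the other EWI protein that binds CD9 and CD81, was at 22.6 ± 0.8 CPM with itaconate and 25.9 ± 0.642 CPM in control, and did not pass (edgeR adjusted p 0.108).

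Of the 8 integrin chains listed 3 rose, 2 fell and 3 did not pass (median 0.03), with 12.0% called over all tested genes. Itgb1, the beta chain shared by many adhesion receptors, fell to 157 ± 8.29 CPM with itaconate, against 218 ± 14.8 CPM in control (-0.48 ± 0.057, edgeR adjusted p 0.000141). Itga4, the alpha chain that pairs with it to bind VCAM-1, was called lower at 37.0 ± 3.03 CPM with itaconate and 47.6 ± 6.21 CPM in control (-0.36 ± 0.096, adjusted p 0.031 in edgeR), a call lost without control replicate 1 or 2 or itaconate replicate 1 or 3 (0.0876 to 0.122). Itgb7, the beta chain of gut-homing integrins, rose to 163 ± 5.22 CPM with itaconate, against 118 ± 12.7 CPM in control (0.47 ± 0.068, edgeR adjusted p 0.000891). Itga6, a laminin-binding chain that CD151 associates with, rose to 49.5 ± 1.71 CPM with itaconate, against 38.6 ± 2.89 CPM in control (0.36 ± 0.069, edgeR adjusted p 0.00417), a call lost on TPM values (limma adjusted p 0.122 to 0.257). The third riser was Itgb2, whose call was lost without control replicate 2 (edgeR adjusted p 0.0568), with effective length as an offset (0.0701) and on TPM values (limma adjusted p 0.234 to 0.426). The Itga4 call was also lost with the offset (edgeR adjusted p 0.0901) and on TPM values (limma adjusted p 0.172 to 0.331), and that of Itgb1 on TPM values without a filter (0.071).

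Of 15 tested genes of multivesicular bodies, exosomes and secretory vesicles, 3 rose, none fell and 12 did not pass (median 0.06). The share called over all tested genes was 12.0%. Flot1, a lipid-raft scaffold, rose to 29.5 ± 3.76 CPM with itaconate, against 20.5 ± 0.424 CPM in control (0.52 ± 0.092, edgeR adjusted p 0.00228). Rab27a, the small GTPase that docks cytotoxic granules and exosome-bearing bodies, rose to 87.9 ± 2.63 CPM with itaconate, against 69.6 ± 2.33 CPM in control (0.34 ± 0.054, edgeR adjusted p 0.00123). Flot2 was the third riser, and all 3 calls were lost on TPM values (limma adjusted p 0.0521 to 0.263), that of Flot2 also with the length offset (edgeR adjusted p 0.0552). Syntenin (Sdcbp), which recruits CD63 into exosomes, and the lysosomal membrane gene Lamp1 did not pass, at 102 ± 5.20 and 133 ± 4.54 CPM with itaconate and 97.5 ± 3.18 and 135 ± 3.64 CPM in control.

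Adam17, a surface sheddase, was called lower at 54.5 ± 1.33 CPM with itaconate and 65.2 ± 4.15 CPM in control (-0.26 ± 0.062, edgeR adjusted p 0.0149), a call lost without control replicate 1 or itaconate replicate 2 or 3 (0.0544 to 0.0621). Adam10 and Adam9 did not pass. Of 12 palmitoyltransferases, the enzyme family that attaches the lipid on which tetraspanin clusters depend, 1 rose and 11 did not pass (median -0.04). The riser was Zdhhc18 at 220 ± 3.34 CPM with itaconate and 194 ± 5.44 CPM in control (0.18 ± 0.045, edgeR adjusted p 0.0184), a call that held in the absence of control replicate 3 but not of any other library (0.0518 to 0.0629). The Adam17 and Zdhhc18 calls were also lost with effective length as an offset (edgeR adjusted p 0.0728 and 0.288) and on TPM values (limma adjusted p 0.115 to 0.242 and 0.623 to 0.708). Zdhhc2, which palmitoylates CD9 and CD151, was at 12.7 ± 1.3 CPM with itaconate and 12.6 ± 0.865 CPM in control.

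The IFITM proteins are small interferon-inducible membrane proteins, some of which bind CD81. Of a list of 4 genes, these and the complement receptor gene Cr2, 3 could be tested, of which 1 fell and 2 did not pass. Ifitm2 fell to 3.12, 4.11 and 4.29 CPM with itaconate, against 7.24, 5.46 and 6.35 CPM in control (-0.73 ± 0.18, edgeR adjusted p 0.0152), a call lost without control replicate 1 or itaconate replicate 1 (0.0595 and 0.0556). Of 11 other surface or signalling partners on T cells 1 rose, 4 fell and 6 did not pass (median -0.09). Here too the share over all tested genes was 12.0%, and nothing is read from the count. Cd8a, the coreceptor chain, rose to 645 ± 14.4 CPM with itaconate, against 497 ± 27.4 CPM in control (0.38 ± 0.049, edgeR adjusted p 0.000297). Cd6, an adhesion receptor of T cells, fell to 196 ± 2.41 CPM with itaconate, against 252 ± 17.4 CPM in control (-0.36 ± 0.053, edgeR adjusted p 0.000603), and Cd5, its inhibitory relative, to 110 ± 6.91 CPM with itaconate, against 143 ± 13.1 CPM in control (-0.37 ± 0.069, edgeR adjusted p 0.00446). The other fallers were Samhd1 and Icam1, and the Icam1 call was lost without control replicate 1 or 2 or itaconate replicate 1 or 2 (edgeR adjusted p 0.0693 to 0.169). With effective length as an offset the calls of Samhd1, Icam1 and Ifitm2 were lost (edgeR adjusted p 0.193, 0.118 and 0.0711). On TPM values those of Samhd1 (limma adjusted p 0.168 to 0.344), Icam1 (0.132 to 0.292) and Cd5 (0.0521 to 0.157) were lost, and those of Cd8a (0.0882), Cd6 (0.105) and Ifitm2 (0.13) only without a filter.

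**Figure D3:**
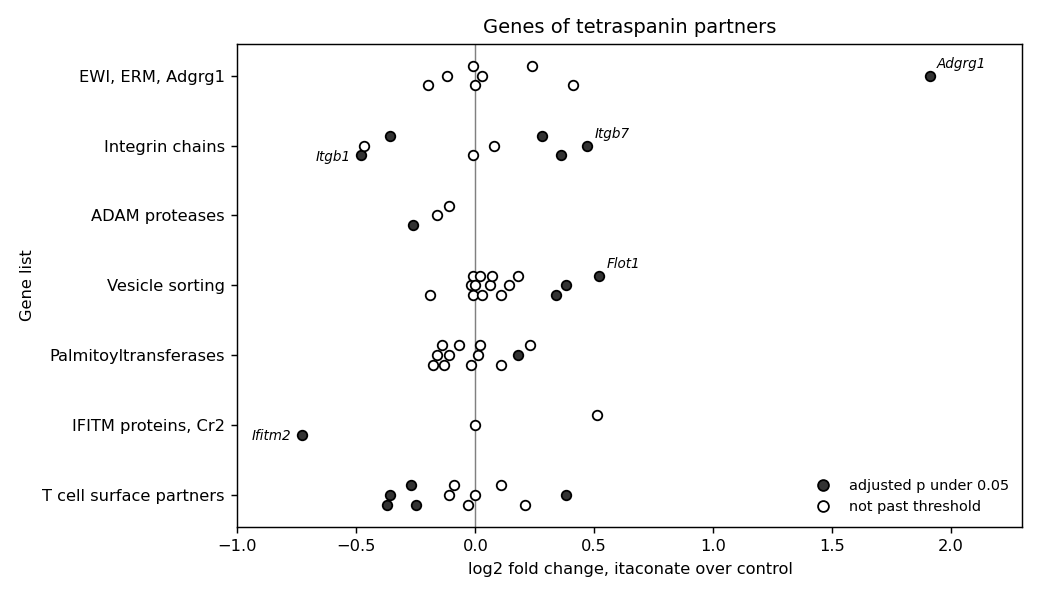
Log2 fold change of itaconate over control for the tested genes of 7 partner lists, 1 point per gene, filled where the edgeR adjusted p was under 0.05, with names for called genes beyond 0.4 in either direction. Adgrg1 lies at 1.91, and the called integrin chains lie on both sides of 0.

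Cd81 and Tspan32 lie in the same stretch of chromosome 7, in a cluster of genes known for imprinting. None of the tested neighbours of Cd81 passed the test without a replicate block. Of 10 neighbours listed, Tspan32, Tssc4, Nap1l4 and Cars could be tested, and Ascl2, Trpm5, Kcnq1, Cdkn1c, Slc22a18 and Phlda2 were under 1 CPM in every library. Tssc4, which begins just past the end of Cd81 at 143069249, had 30, 31.1 and 27.8 CPM in itaconate libraries and 28.6, 33.2 and 35.9 CPM in control libraries. Nap1l4, a histone chaperone, had 185, 182 and 186 CPM with itaconate and 194, 196 and 196 CPM in control, which did not overlap, but the log2 fold change of -0.08 ± 0.043 did not pass (edgeR adjusted p 0.25). Cars, the cysteinyl-tRNA synthetase, was at 173 ± 8.97 CPM with itaconate and 159 ± 14.5 CPM in control (edgeR adjusted p 0.222), and passed with a replicate block (0.0372).

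**Figure D4:**
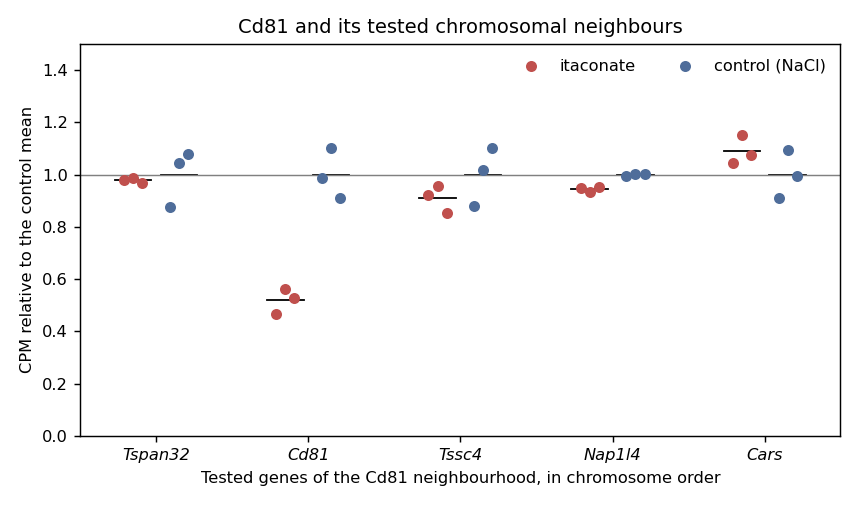
CPM of Cd81 and its 4 tested neighbours on chromosome 7, each divided by the mean of its 3 control libraries, with 1 point per library and a line at the group mean (itaconate left, control right). The 3 itaconate points of Cd81 lie well under its control points, and those of the neighbours lie near 1.

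Genes with values across the 6 libraries nearest to those of Cd81 were sought. The measure was the root mean square difference of log2 CPM relative to the control mean. The 8058 candidates averaged 10 CPM or more. Genes with predicted names (Gm, AC or BC plus digits, or ending in Rik) were left out. The nearest candidates were Bnip3l (0.0728), Txnip (0.0979), Ak4 (0.0999), Tnfsf8 (0.106) and Slc16a3 (0.113), with log2 fold changes between -0.91 and -0.77. Bnip3l had 50.6, 62 and 52.5 CPM with itaconate and 105, 105 and 99.4 CPM in control. Txnip, which responds to glucose, had 44.3, 44.1 and 48.6 CPM with itaconate and 86, 87.8 and 82.5 CPM in control. The 6 libraries form 2 groups, so a fold change of like size gives a small difference here.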

How the data were processed

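RNA-seq was analysed in 3 itaconate-treated and 3 NaCl-treated libraries of mouse CD8+ T cells, grouped by their titles. Each deposited table lists genes under RSEM column headings. The deposited expected counts are estimated reads per gene without normalisation. The deposited TPM values had been corrected by the authors for effective length and scaled to a common total. Bowtie 0.12.2 and the builds mm8 and mm10 are named, per the submitters' processing notes, with no role attached. Annotation release and strand setting: not given in the sources used here. Expected counts, of which 5.987% to 6.931% per library were further than 0.001 from a whole number, were rounded. Itaconate was compared with control by edgeR 4.0.16 in R 4.3.3 (TMM, robust quasi-likelihood test, minimum count 10 and minimum total 15, 12350 genes, Benjamini-Hochberg adjustment over all of them). CPM used effective library sizes. The SE of a log2 fold change was derived from the test, as its absolute value divided by the square root of the F statistic. The test was tried on simulated data. Positions came from GENCODE M21 and promoters from RefSeq, looked up by identifier or symbol. Library pairs of 1 group had chi-square values per gene of 4.9 to 16.92, where a resequenced copy would give about 1. Alternatives were DESeq2 1.42.0, other scaling factors and filters, effective length as an offset, limma 3.58.1 on log2(TPM + 1) and log2(TPM + 0.1), unrounded counts, a replicate block, and leaving out each library. The members and lists were chosen with earlier results of these data known. Named genes are the 9 members, other tetraspanins, up to 2 risers and 2 fallers per partner list by smallest adjusted p, the neighbours of Cd81 and the 5 genes nearest to it; 1 gene of the partner and B cell lists is not reported here and was taken out of both lists; further partner genes named as level or by symbol only were chosen after their values were seen.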

Additional observations from a re-analysis of the deposited data

How the results depend on the processing

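The log2 fold change of Cd81 lay between -1.02 and -0.87 in 17 alternative analyses, which is no independent support since Cd81 was selected on these libraries. That of Cd37 lay between 0.24 and 0.40, with the call lost in 4 of 17. The 2 calls among the 9 genes became 1 (Cd81) with effective length as an offset and in each of the 3 limma analyses of TPM, and stayed at 2 without any 1 library. Calls among the other tetraspanins were 4, and became 2 with DESeq2, 1 with the length offset, 0 with limma on log2(TPM + 1), 0 on log2(TPM + 0.1) and 0 on log2(TPM + 1) without a filter, and 1 to 3 without 1 library. In each of the 3 limma analyses 2 of these genes, Tspan13 and Tspan3, had an unadjusted p under 0.05. Partner genes called were 17, and 9 with the length offset, 5, 6 and 1 in the 3 limma analyses, and 12 to 19 without 1 library. Over all genes 1487 were called, 567 with the length offset, 305, 304 and 59 with limma, 2419 with a replicate block, and 726 to 1400 without 1 library (726 without control replicate 2, 896 without itaconate replicate 2 and 835 without itaconate replicate 3). On log2(TPM + 1) 37.7% of calls were higher, against 55.5% of the 1487. Log2 fold changes near 0 changed sign: without 1 library, Cd9 ran from -0.15 to 0.07, Cd82 from -0.09 to 0.02, Tspan31 from -0.05 to 0.02 and Tspan32 from -0.12 to 0.02. The causes were not tested. Deviations of same-numbered libraries correlated at 0.154, 0.0398 and 0.0308, and those of differently numbered libraries at -0.139 to 0.102. These values do not settle whether the numbers pair the libraries. The labels do not say so either, so the numbers entered only the replicate block. That block changed no call among the 9 genes or the other tetraspanins but added Cars, Vps4a and Zdhhc4 to the partner calls. Cd63 had 8 to 21 reads per library.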

Other observations

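The length that RSEM assigns to a gene, an average over its transcripts weighted by their estimated abundance, was not used to choose the 9 genes. For Cd81, with 6 listed transcripts, it was 1217, 1420 and 1533 bases in itaconate replicates 1, 2 and 3, against 1350, 1529 and 1388 bases in control replicates 1, 2 and 3, so the groups overlapped (two-sided exact permutation p 1). Over the 9 genes the exact permutation p ran from 0.2 to 1 and the adjusted p over 9 genes from 0.75 to 1, and with 3 libraries a group no p under 0.1 is possible. Leaving out each library for these lengths was chosen after seeing the data. Cd63 had 1007 ± 53.9 bases with itaconate and 1153 ± 173 bases in control (SD, n = 3 each), and its difference of -146.3 bases lay between -201.2 and -46.5 without 1 library, the smallest without control replicate 2. Cd151 had 1598 ± 157 bases with itaconate and 1471 ± 222 bases in control, a difference of 127 that lay between 58.2 (without control replicate 1) and 255.1 (without control replicate 2). The difference of Cd81, -32.7 bases, turned positive without itaconate replicate 1 (53.9) or control replicate 2 (20.5), and lay at -104.2 without itaconate replicate 3 and -68.7 without control replicate 1. That of Cd37, 36.3 bases, ran from -2.3 (without itaconate replicate 1) to 81 (without control replicate 1). Tspan31 had 1509 ± 17.7 bases with itaconate and 1461 ± 35.7 bases in control. Cd53 has a single listed transcript of 1742 bases in every library. Its length could not differ between the groups, so its test, counted among those of the 9 genes, had a fixed outcome.

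Besides R74862 and Cdk4, 7 annotated genes overlap 1 of the 9 genes. Each had at most 8 reads in any library.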
